A study of Rattus norvegicus with 16 samples.

Results

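Genes of the circadian clock, 6 of the 32545 genes in the deposited table, were followed in hearts of doxorubicin (DOX) treated and control rats: Arntl (ENSRNOG00000014448), Clock (ENSRNOG00000002175), Per1 (ENSRNOG00000007387), Per2 (ENSRNOG00000020254), Nr1d1 (ENSRNOG00000009329) and Dbp (ENSRNOG00000021027). They were chosen as known clock genes by identifier, with no measured value in the rule, although earlier results of these data were known at the choice. All 6 passed the expression filter. Each of 16 RNAseq libraries came from the heart of 1 male Wistar rat, 6 to 8 weeks old at the start and killed at week 6. The DOX high group (n = 6) received 5 weekly intravenous injections of 3 mg per kg doxorubicin, an anthracycline used against cancer that can damage the heart, to a cumulative dose of 15 mg per kg. The saline group (n = 10) received saline by the same route, in 5 weekly injections by the sample labels and 6 by the methods. All rats were of cohort 1 and carried no genetic change that the labels name. The hour of day at which hearts were taken is not given in the sources used here.

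The circadian clock is a feedback loop of transcription and translation that runs in most cells, cardiomyocytes included, with a period of about a day. ARNTL (also called BMAL1) and CLOCK form the positive limb, a dimer that binds E-box elements and switches on the period genes, the gene of the nuclear receptor REV-ERB alpha (Nr1d1) and the output gene Dbp. PER proteins then block the dimer, REV-ERB alpha represses Arntl, and in heart and other peripheral tissues Arntl transcripts peak at about the opposite time of day from those of Nr1d1, Dbp and the period genes.

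To show the elements through which these genes are known to be linked, RefSeq promoter windows of 300 bases (250 before to 50 after each annotated start, build GRCr8, not the Rnor_6.0 build of the counts) were searched on both strands for 4 motifs: the E-box CACGTG, its variant CACGTT, the D-box TTATGTAA that DBP and its relatives bind, and the ROR/REV-ERB element that REV-ERB alpha and the ROR receptors bind. The 250 bases before the start are given for the windows with a match, 5′ to 3′ on the strand of the gene, with the matching bases in capitals:
Arntl (as Bmal1), chr1:176766078-176766327, plus strand: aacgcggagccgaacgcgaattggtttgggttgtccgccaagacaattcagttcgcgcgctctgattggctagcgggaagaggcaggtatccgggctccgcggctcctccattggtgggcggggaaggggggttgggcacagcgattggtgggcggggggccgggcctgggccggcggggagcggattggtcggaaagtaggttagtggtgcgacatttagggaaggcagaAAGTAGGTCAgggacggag
Per2, chr9:99496994-99497243, minus strand: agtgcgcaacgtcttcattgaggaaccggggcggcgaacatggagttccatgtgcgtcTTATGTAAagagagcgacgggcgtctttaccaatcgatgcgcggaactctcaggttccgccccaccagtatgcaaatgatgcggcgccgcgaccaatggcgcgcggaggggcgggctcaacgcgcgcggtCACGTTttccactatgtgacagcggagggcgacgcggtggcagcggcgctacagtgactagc
Nr1d1, first entry, chr10:84229455-84229704, minus strand: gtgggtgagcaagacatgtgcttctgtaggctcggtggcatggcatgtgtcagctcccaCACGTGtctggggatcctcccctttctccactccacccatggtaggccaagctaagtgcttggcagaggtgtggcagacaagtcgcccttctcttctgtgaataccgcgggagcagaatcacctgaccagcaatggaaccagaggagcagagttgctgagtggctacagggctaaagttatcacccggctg
Nr1d1, second entry, chr10:84231813-84232062, minus strand: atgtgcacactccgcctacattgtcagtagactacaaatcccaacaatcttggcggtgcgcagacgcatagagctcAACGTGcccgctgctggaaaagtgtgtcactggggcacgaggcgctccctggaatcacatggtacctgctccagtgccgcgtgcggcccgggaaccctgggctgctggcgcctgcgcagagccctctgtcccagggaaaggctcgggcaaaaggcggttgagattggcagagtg
The Arntl window held a ROR/REV-ERB element beginning 19 bases before the start, a motif found in 2.73% of all 33469 promoter windows. The Per2 window held the E-box variant 62 bases before the start and a D-box 192 bases before it, found in 4.83% and 0.893% of windows. Of the Nr1d1 entries, the first held a CACGTG E-box 191 bases before its start, found in 6.42% of windows, and the second held the E-box variant on the other strand 174 bases before its start. The windows of Clock (2 entries), Per1 and Dbp held none of these letters, which says nothing of elements elsewhere. A match of letters is a description and not a binding site.

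The libraries held 13784896 to 16842418 counted fragments in saline and 15369246 to 18025615 in DOX high hearts, and the members had between 64 and 3242 counts in a heart. Levels, after TMM scaling of the libraries in edgeR, are given as CPM, counts scaled to a common library size, or their log2. Rats were numbered consecutively: saline rats 5 to 10 form one block of numbers, and saline rats 34 to 37 share the block 30 to 39 with all 6 DOX high rats. The library labelled saline rat 37 correlated more closely with DOX high than with saline libraries across genes (median Pearson r of 0.973 against 0.946). DOX high rat 32 stood apart by its scaling factor of 1.36 and by 533 genes that exceeded every other rat by more than 2-fold. Saline rat 10 came next with 127 such genes. Among saline rats it had the lowest median Pearson r with the other saline libraries (0.942). These rats are named beside the results they touch. In heart tissue, fewer cells of a type and less RNA per cell cannot be told apart, and the tissue was not checked against cell type markers, because the identifiers in the files are not paired with gene names.

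The first question was whether the clock genes differed between DOX high and saline hearts. Per1 and Per2, whose proteins close the feedback loop, were both about 2-fold higher in DOX high hearts and passed the test. Arntl, the partner of CLOCK in the positive limb, was 2.63-fold lower but did not pass. Clock, Nr1d1 and Dbp had smaller differences that did not pass. In all, 2 of 6 members differed at an adjusted p under 0.05 (edgeR quasi-likelihood test with Benjamini-Hochberg adjustment over all genes), beside 6.25% of the 13607 genes tested, and both were higher, as were 4.01% of all genes. The background itself moved with single rats, from 851 genes to as few as 345 when DOX high rat 38 was left out and as many as 1762 (13%) when saline rat 37 was. The median absolute log2 fold change was 0.70 over the 6 members and 0.18 over all genes.

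**Figure D1:**
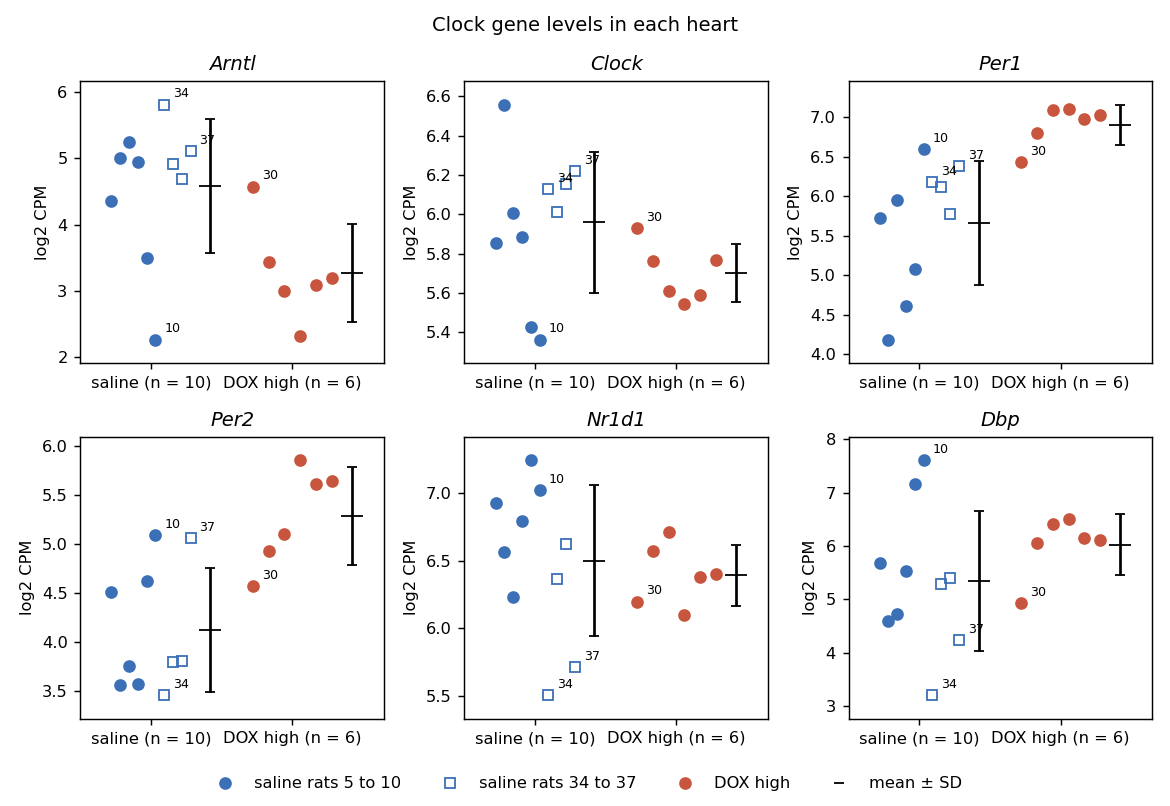
Level of each clock gene in log2 CPM (vertical axis, a different range in each panel) in every saline and DOX high heart, with the mean ± SD of each group as a bar at the right of its points and rats 10, 30, 34 and 37 labelled. Per1 and Per2 were above the saline median in all 6 DOX high hearts and Arntl below it in all 6, whereas the groups overlapped in every gene. The share of all genes with such positions relative to the saline median was not counted.

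Among the negative-limb genes, Per1 ranged in saline hearts from 18.1 through a median of 58.4 to 96.6 CPM, and in DOX high hearts from 86.5 through 128 to 137 CPM. Of the 6 DOX high hearts, 5 (all but rat 30) lay above every saline heart, an arrangement found at least this fully in 1.91% of genes, and 9 of 10 saline hearts lay below the lowest DOX high heart. The mean was 56.7 ± 25.4 CPM (SD, n = 10) in saline and 121 ± 19.5 CPM (SD, n = 6) in DOX high hearts, a log2 fold change of 1.10 in the edgeR fit (standard error, SE, 0.28 and adjusted p = 0.0326). The adjusted p was close to the threshold. It passed in 9 of 16 edgeR fits that left out 1 rat each, and did not pass when saline rats 5 (0.0504), 7 (0.0553) or 36 (0.0533) or DOX high rats 32 (0.0588), 33 (0.0647), 38 (0.0650) or 39 (0.0613) were left out.

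Per2, the close relative of Per1, was at 10.8, 13.8 and 33.9 CPM (lowest, median, highest) in saline and at 23.5, 41.5 and 57.7 CPM in DOX high hearts. All 6 DOX high hearts were above the saline median and 4 were above every saline heart, and the 3 saline hearts that reached into the DOX high range were rats 9, 10 and 37. The share of all genes with such positions against all saline hearts was not counted, here or for Arntl, Clock, Nr1d1 and Dbp below. The mean rose from 18.9 ± 8.98 CPM (SD, n = 10) to 40.7 ± 13.3 CPM (SD, n = 6), a log2 fold change of 1.10 in the edgeR fit (SE 0.28, edgeR adjusted p = 0.0314). Without saline rat 37, whose Per2 level lay among those of the DOX high hearts, the log2 fold change was 1.23 (edgeR adjusted p = 0.00751, in a fit that called 13% of genes). Per2 passed in 8 of 16 edgeR fits that left out 1 rat each. It did not pass when saline rats 7 (0.0580), 8 (0.0562), 34 (0.05003), 35 (0.0509) or 36 (0.0535) or DOX high rats 33 (0.0726), 38 (0.0693) or 39 (0.0642) were left out.

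In the positive limb, Arntl was at 4.68, 30.4 and 56.0 CPM (lowest, median, highest) in saline and at 4.85, 8.70 and 23.7 CPM in DOX high hearts. All 6 DOX high hearts lay below the saline median and 7 of 10 saline hearts above the highest DOX high heart, but saline rat 10 had the lowest level of all 16 hearts. The means were 28.3 ± 14.3 CPM (SD, n = 10) and 10.7 ± 6.61 CPM (SD, n = 6), a difference of -1.40 on the log2 scale (SE 0.42, edgeR adjusted p = 0.0580). A single heart decided on which side of the threshold Arntl fell: the adjusted p of the edgeR test was 0.0453 without saline rat 9, 0.0257 without saline rat 10 and 0.0310 when DOX high rat 30 was left out, and up to 0.118 without another rat. The method mattered as well: DESeq2 gave the same log2 fold change with an adjusted p of 0.00948, edgeR without the expression filter gave 0.0685, and limma on log2(TPM + 1) and log2(TPM + 0.1) gave log2 fold changes of -1.12 and -1.25 with adjusted p of 0.149 and 0.151. A two-sided exact permutation test of the difference in mean log2 CPM (-1.31, all 8008 splits of the rats, not adjusted) gave p = 0.0184.

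Clock, the other positive-limb gene, had the smallest fold range of the 6 genes in both groups. It was at 41.0, 64.3 and 94.1 CPM in saline and 46.5, 51.4 and 60.9 CPM in DOX high hearts, where all 6 lay below the saline median. Its log2 fold change of -0.29 (SE 0.15) did not pass (edgeR adjusted p = 0.229). Nr1d1, which encodes the repressor of Arntl, was at 45.3, 96.6 and 152 CPM in saline and at 68.5, 83.8 and 105 CPM in DOX high hearts, so that the DOX high hearts lay within the saline range, and the log2 fold change was -0.18 (SE 0.22, edgeR adjusted p = 0.656). Dbp, a transcription factor whose gene is a direct target of the dimer, had the widest saline range of the 6 genes, at 9.09, 40.3 and 196 CPM, against 30.3, 70.3 and 90.9 CPM in DOX high hearts, with a log2 fold change of 0.21 (SE 0.52, edgeR adjusted p = 0.841), with 5 of 6 DOX high hearts above the saline median. That value moved with single hearts and with the scale: it ranged from 0.081 (without saline rat 34) to 0.63 (without saline rat 10) when 1 rat was left out, and went to 0.71 and 0.74 with limma on the TPM scales, and to 0.69 as a difference in mean log2 CPM, without passing in any of them.

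The rats compared changed these values. All DOX high rats have numbers from 30 to 39, and against saline rats 34 to 37 alone the 6 DOX high hearts did not overlap the 4 saline hearts in Arntl and Clock, which were lower, and in Per1, which was higher; without overlap, 2.17% of all genes were lower and 2.22% higher. Within these 10 rats the log2 fold change was -1.77 (SE 0.39) for Arntl, -0.43 (0.09) for Clock, 0.79 (0.15) for Per1 and 1.18 (0.35) for Per2. It was 0.28 (0.22) for Nr1d1 and 1.34 (0.42) for Dbp. Of the 6 members, 5 (all but Nr1d1) had an unadjusted p under 0.05 in this edgeR fit, beside 13.8% of 13730 genes, but none passed after Benjamini-Hochberg adjustment and neither did any other gene (0%; adjusted p between 0.115 for Per1 and 0.225 for Dbp in those 5, and 0.581 for Nr1d1). With the number block as a covariate the log2 fold changes were -1.76 for Arntl, -0.42 for Clock, 0.80 for Per1, 1.18 for Per2, 0.28 for Nr1d1 and 1.34 for Dbp. No member passed in that fit either (lowest adjusted p = 0.164, for Arntl, from the edgeR test), where 0.0147% of genes did.

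**Figure D2:**
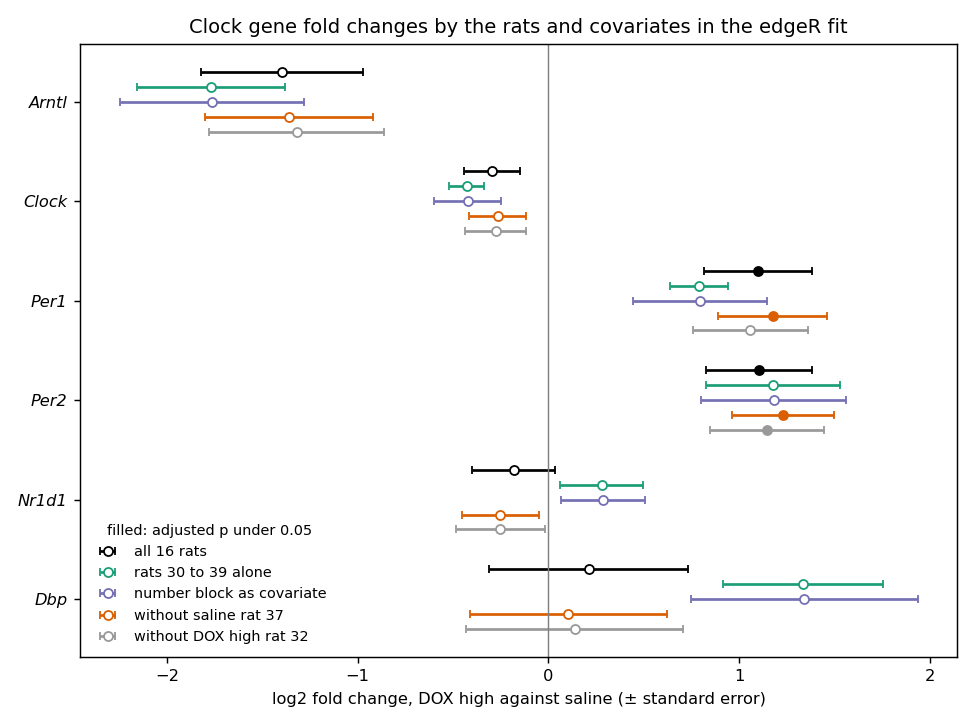
Log2 fold change of each clock gene, DOX high against saline, with its standard error as a bar, from 5 edgeR fits that differ in the rats or covariates used, with filled points where the adjusted p was under 0.05. Arntl and Clock lay below 0 and Per1 and Per2 above 0 in all 5 fits, Nr1d1 changed side, and Dbp was 0.21 in all 16 rats and 1.34 within rats 30 to 39.

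Saline hearts of the number blocks were then compared with each other, since they differ in number and not in treatment. Dbp was lower in saline rats 34 to 37 than in rats 5 to 10 (27.1 ± 15.8 CPM, SD, n = 4, against 81.1 ± 71.2 CPM, SD, n = 6). Its log2 difference of -1.58 (SE 0.69) had an unadjusted p of 0.0435 and an adjusted p of 0.918 in the edgeR test. Nr1d1 was at 69.6 ± 25.1 CPM (SD, n = 4) and 114 ± 27.0 CPM (SD, n = 6), a log2 difference of -0.71 (SE 0.25, edgeR unadjusted p = 0.0174 and adjusted p = 0.918). Arntl differed by 0.68 (SE 0.47), Clock by 0.23 (0.20), Per1 by 0.55 (0.40) and Per2 by -0.13 (0.40) on the log2 scale. No member passed after adjustment, and neither did any other of the 13413 genes tested with edgeR (0%; DESeq2 called 0 members and 22 genes), while 4.41% had an unadjusted p under 0.05. The median absolute log2 difference was 0.62 over the members and 0.14 over all genes.

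The next question was how far these genes varied between hearts of the same group. In saline hearts the highest level was 21.3-fold the lowest for Dbp, 11.7-fold for Arntl, 5.32-fold for Per1, 3.35-fold for Nr1d1, 3.11-fold for Per2 and 2.29-fold for Clock. The SD of log2 CPM was 1.31 for Dbp, above that of 99.8% of the genes within 0.5 log2 CPM of its mean level, whose median SD was 0.20. It was 1.01 for Arntl and 0.79 for Per1, above 98.5% and 98.1% of genes of like level. These values pool both number blocks. In the 4 saline hearts of rats 34 to 37, the block of the DOX high rats, the highest level was 4.57-fold the lowest for Dbp, 3.04-fold for Per2, 2.19-fold for Arntl, 2.18-fold for Nr1d1, 1.52-fold for Per1 and 1.15-fold for Clock, so both extremes of Per1 and Clock over all saline hearts were in rats 5 to 10. In DOX high hearts the highest level was 4.78-fold the lowest for Arntl, 2.99-fold for Dbp, 2.44-fold for Per2, 1.59-fold for Per1, 1.53-fold for Nr1d1 and 1.31-fold for Clock. Arntl and Dbp were among the more variable genes of their level there too (SD 0.74 and 0.57, above 97.3% and 97.1% of genes). The SD of Nr1d1 was 0.23 and that of Per1 0.26, above 55.9% and 66% of genes, but on the TPM scale they were 0.44 and 0.42, above 89.8% and 87.9%, beside 91.7% for Arntl, and without rat 32 on the CPM scale above 77.6% and 90.8%. Without rat 30 the SD was 0.42 for Arntl and 0.20 for Dbp, above 86.2% and 52.9% of genes of like level. These are descriptions, and the difference in spread between the groups was not tested.

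The study then allows the question whether positive-limb genes (Arntl, Clock) and negative-limb or output genes (Per1, Per2, Nr1d1, Dbp) moved in opposite directions from heart to heart. It was asked within each group, over 15 pairs of genes, 8 of them across the limbs, with permutation p-values adjusted by Benjamini-Hochberg over the 15. In saline hearts 7 of the 8 pairs across the limbs had a negative Spearman rho, 3 of them with an adjusted permutation p under 0.05. Of the 7 pairs within a limb, 5 had a positive rho. All values share the scaling of their library, so the genes of a pair are not measured independently of each other. The 8 pairs across the limbs also share genes, each holding Arntl or Clock, so they are not 8 separate observations. The share of negative pairs among other genes was not counted, here or in DOX high hearts below.

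Arntl and Dbp were the most opposed pair in saline hearts (rho = -0.93, adjusted permutation p = 0.00250; Pearson r = -0.94, adjusted permutation p = 0.00075; n = 10). Rat 34 had the highest Arntl and the lowest Dbp, and rat 10 the lowest Arntl and the highest Dbp. Without rats 9 and 10, the hearts farthest from the median Arntl, r was -0.90. Within saline rats 5 to 10 rho was -0.94 (n = 6, adjusted exact permutation p = 0.0417), and the 4 hearts of rats 34 to 37, too few for a test, were in exactly opposite order for Arntl and Dbp. Arntl and Nr1d1 were opposed too (rho = -0.92, adjusted permutation p = 0.00250; r = -0.75, adjusted permutation p = 0.0367), with r = -0.85 without rats 9 and 10 and rho = -0.94 within rats 5 to 10. On the TPM scale, which has no TMM scaling, rho was -0.89 for Arntl and Dbp and -0.56 for Arntl and Nr1d1 (adjusted permutation p = 0.339), so the second relation depended on the scaling. Nr1d1 and Dbp, both targets of the dimer, were positively correlated (rho = 0.95, adjusted permutation p = 0.00225; r = 0.89, adjusted permutation p = 0.00727), and r was 0.83 without rats 34 and 37. This pair too lost its call on the TPM scale (rho = 0.79, adjusted permutation p = 0.0524) and within rats 5 to 10 (rho = 0.89, n = 6, adjusted exact permutation p = 0.0625).

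The other pairs in saline hearts were weaker or rested on few hearts. For Arntl and Per2, rho was -0.68 (adjusted permutation p = 0.0896) and r was -0.70 (adjusted permutation p = 0.0476). Without rats 9 and 10, the ends of the Arntl range, r was -0.37 and rho -0.52, so the linear relation rested in part on those hearts. Saline rat 37 went against it, with high Arntl and high Per2, and without that rat rho was -0.95 (n = 9). That value leaves out a heart that went against the relation, so it is a description and not a test. Arntl and Clock, the partners of the positive limb, were positively correlated (rho = 0.66, adjusted permutation p = 0.0913; r = 0.80, adjusted permutation p = 0.0200), and with r = 0.27 without rats 9 and 10 this relation rested on them as well. Clock and Dbp were opposed (rho = -0.84, adjusted permutation p = 0.0141; r = -0.83, adjusted permutation p = 0.0200), with r = -0.45 without rats 9 and 10. Per1 was the exception among the negative-limb genes, with a rho of 0.067 with Arntl and -0.14 with Dbp (adjusted permutation p = 0.864 and 0.817).

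**Figure D3:**
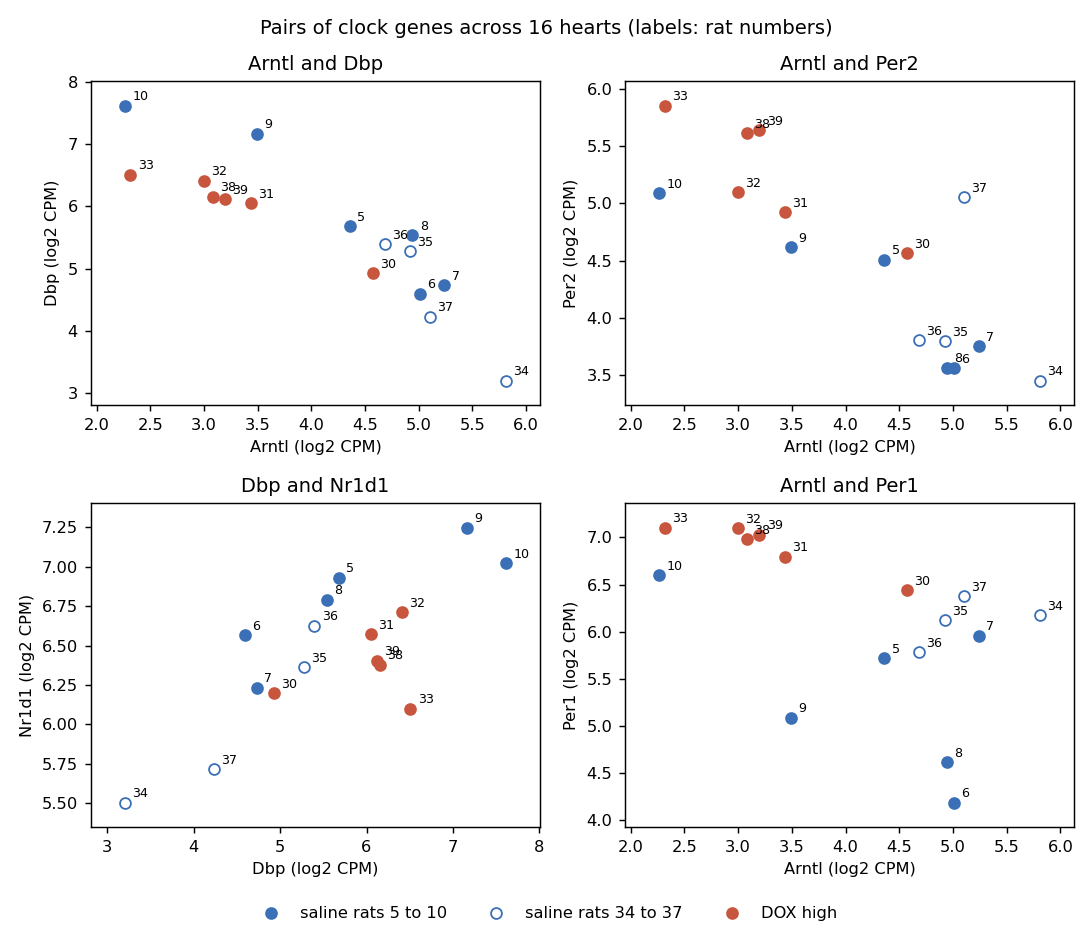
Levels of 4 pairs of clock genes in log2 CPM on both axes, 1 point per heart with its rat number, filled blue for saline rats 5 to 10, open for saline rats 34 to 37 and red for DOX high. Dbp fell as Arntl rose in both groups, Nr1d1 rose with Dbp in saline hearts, and saline rat 37 had a high Per2 at a high Arntl.

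In the 6 DOX high hearts, 6 of the 8 pairs across the limbs had a negative rho and 1 had an adjusted exact permutation p under 0.05 by Spearman and 5 by Pearson. The count of negative pairs was 4 of 8 on the TPM scale, 5 without TMM factors and 7 with upper-quartile factors. Of the 7 pairs within a limb, 4 had a positive and 3 a negative rho. Arntl and Dbp were in exactly opposite order (rho = -1, adjusted exact permutation p = 0.0417; r = -0.96, adjusted exact permutation p = 0.0208), with r = -0.82 in the 4 hearts left without rats 30 and 33. Arntl and Per1 were opposed here (rho = -0.94, adjusted exact permutation p = 0.0833; r = -0.94, adjusted exact permutation p = 0.0208), with r = -0.93 in those 4 hearts. Per1 and Dbp were positively correlated (rho = 0.94, adjusted exact permutation p = 0.0833; r = 0.97, adjusted exact permutation p = 0.0208). Nr1d1 had a rho of 0.086 with Arntl and -0.086 with Dbp (adjusted exact permutation p = 0.985 for both). The order of the DOX high hearts depended on the TMM scaling, which is largest for rat 32: on the TPM scale rho was -0.37 for Arntl and Dbp (adjusted exact permutation p = 0.746) and -0.26 for Arntl and Per1, whereas without rat 32 on the CPM scale these were -1 and -0.90 (n = 5). Whether a correlation differed between the groups was not tested.

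**Figure D4:**
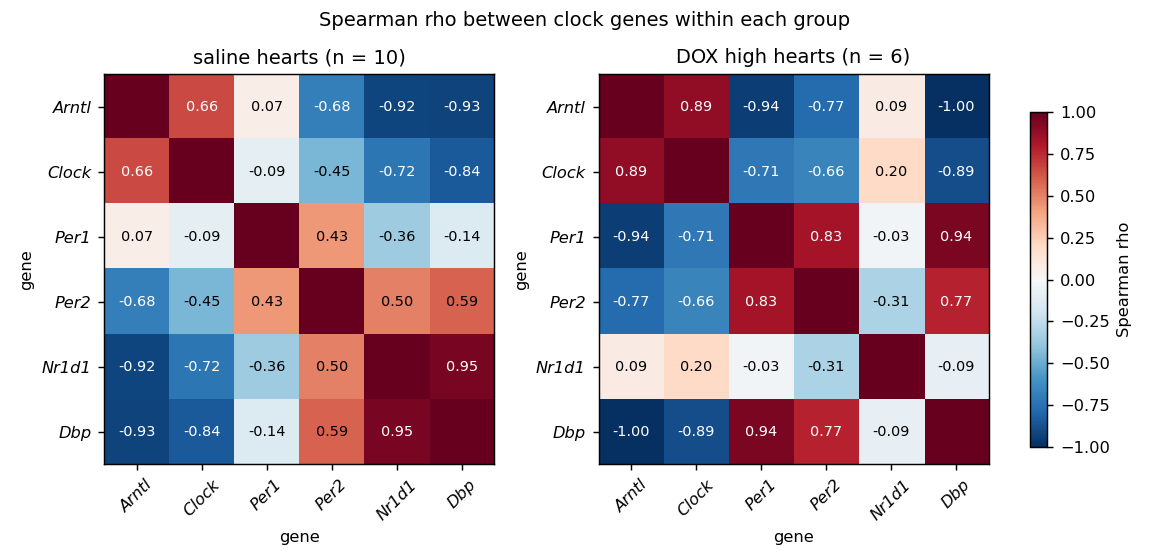
Spearman rho of log2 CPM for each pair of clock genes in the 10 saline hearts (left) and the 6 DOX high hearts (right), with red for a positive and blue for a negative rho. Arntl was opposed to Dbp in both groups (-0.93 and -1), to Nr1d1 in saline hearts (-0.92, against 0.086 in DOX high hearts) and to Per1 in DOX high hearts (-0.94, against 0.067 in saline hearts).

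The relations with Arntl were then set beside those of all other well-expressed genes. After subtracting group means, rho across the 16 hearts was -0.94 for Arntl and Dbp, and 2 of the 8543 genes compared, Dbp included, had a rho with Arntl at least as negative. It was -0.76 for Per2, with 18 genes at least as negative, and -0.66 for Nr1d1, with 76. Clock followed Arntl with a rho of 0.80, and 11 genes were at least as positive. Per1 had a rho of -0.047, in the middle of all genes. These ranks did not all hold within a group. In saline hearts alone, 6.89% of genes were at least as positive as Clock. At least as negative were 2.61% for Per2, 0.0936% for Nr1d1 and 0.0702% for Dbp. In DOX high hearts alone, 2.36% of genes were at least as positive as Clock. At least as negative there were 0.702% for Per1, 5.78% for Per2, 53.1% for Nr1d1 and 0.105% for Dbp. Outside the members, the genes most opposite to Arntl were ENSRNOG00000018413 (rho = -0.95) and ENSRNOG00000002358 (-0.89), and those most like it were ENSRNOG00000003251 (0.84) and ENSRNOG00000018107 (0.83), over 16 hearts and 8538 genes. On the TPM scale ENSRNOG00000003251 was again the most like it (0.86), and the other 3 places went to other genes. These correlations are descriptions.

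Ordered by the log2 CPM of Arntl minus that of Dbp, the 16 hearts ran from saline rat 34 (2.61) to saline rat 10 (-5.35). The highest 5 places went to saline rats 34, 37, 7, 6 and 35, and DOX high rat 30 came next (-0.36), among the saline hearts. The other 5 DOX high hearts lay between -2.61 (rat 31) and -4.19 (rat 33). Saline rats 9 (-3.67) and 10 were at the same low-Arntl end as those 5 hearts, although they were saline-treated and of the other number block.

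The saline and DOX high hearts at that end differed in Nr1d1 and Per1. Saline rats 9 and 10 had Nr1d1 at 7.25 and 7.02 log2 CPM, above all 6 DOX high hearts (6.10 to 6.71), and Dbp at 7.16 and 7.61, also above all 6 (4.93 to 6.51). Dbp sets the order together with Arntl, and Nr1d1 followed Dbp in saline hearts (rho = 0.95), so neither level is independent of the order. Per1 of saline rats 9 and 10 was at 5.08 and 6.60 log2 CPM, below the 5 DOX high hearts of that end (6.80 to 7.10). Their Per2 at 4.62 and 5.09 was within the DOX high range (4.56 to 5.85). Within a heart, log2 Per1 minus log2 Nr1d1 was -0.84 ± 1.13 (SD, n = 10) in saline and 0.51 ± 0.29 (SD, n = 6) in DOX high hearts, and log2 Per2 minus log2 Nr1d1 was -2.38 ± 0.72 and -1.11 ± 0.60. Both differences were thus higher in DOX high hearts on average. Saline rats 34 and 37 (0.67 and 0.66) lay inside the DOX high range of the first, and rat 37 (-0.66) inside that of the second. Saline rats 9 and 10 were below the DOX high range in both. The lowest saline values of the first were in rats 6, 8, 9 and 5 (-2.38, -2.18, -2.16 and -1.21), all of block 5 to 10. Saline rats 35 and 36 were at -0.24 and -0.85. In saline rats 34 to 37 against rats 5 to 10, Nr1d1 was lower (log2 difference of -0.71) and Per1 higher (0.55). Both raise log2 Per1 minus log2 Nr1d1 in rats 34 to 37. Neither passed (edgeR adjusted p = 0.918 for both). The saline mean of that within-heart difference may thus depend on the block, which was not tested. Neither within-heart difference was tested.

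**Figure D5:**
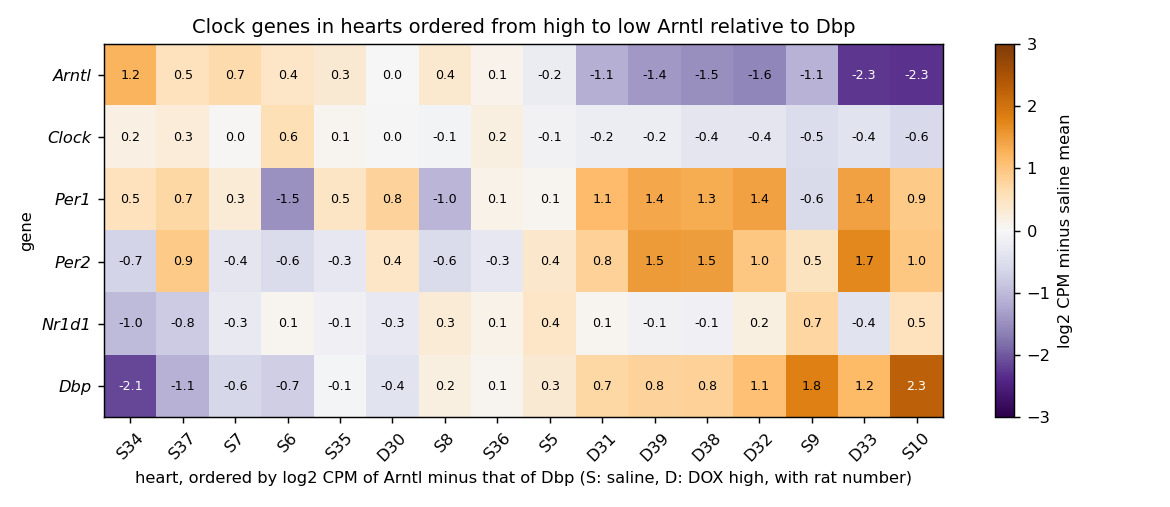
Log2 CPM of the 6 clock genes minus the saline mean (colour and number) in 16 hearts ordered from high to low Arntl relative to Dbp, with S for saline and D for DOX high rats. The 5 other DOX high hearts share the low-Arntl end with saline rats 9 and 10, which have lower Per1 than those 5 hearts and higher Nr1d1 and Dbp. Dbp is itself part of the order, and Nr1d1 followed it in saline hearts.

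Dbp, 1 of the 2 genes that set this order, was then added to the edgeR model as a covariate, a fit chosen after seeing the data. Dbp alone does not fix the place of a heart in the order. It was closely opposed to Arntl (rho = -0.93 in saline hearts). It also had a log2 difference of -1.58 between the saline number blocks, and block was not in this fit. With Dbp in the model, Arntl was lower in DOX high hearts by a log2 fold change of -0.80 (edgeR adjusted p = 0.0260), beside 5.04% of all genes called in that fit. Per1 and Per2 were at 1.07 and 0.93 with adjusted p of 0.0573 and 0.0561, and Nr1d1 at -0.35 (adjusted p = 0.132). With Arntl as the covariate instead, no member passed (0.845% of genes did), with Per1 at 0.89 (adjusted p = 0.213), Per2 at 0.53 (0.332), Nr1d1 at -0.54 (0.202) and Dbp at -0.79 (0.114) on the log2 scale. Arntl was itself lower in DOX high hearts (log2 fold change of -1.40), so treatment and Arntl level cannot be told apart in that fit.

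Per length, on the authors' TPM scale, the order of mean levels in saline hearts was Nr1d1 (50.2 ± 17.3 TPM, SD, n = 10), Dbp (44.9 ± 43.7), Per1 (18.6 ± 8.57), Arntl (12.9 ± 6.60), Clock (9.40 ± 3.99) and Per2 (4.36 ± 2.13). Only Clock and Per2, among neighbours in this order, differed by more than the larger of their SDs. In DOX high hearts the order was Dbp (57.8 ± 24.2 TPM, SD, n = 6), Nr1d1 (47.4 ± 16.6), Per1 (42.4 ± 12.9), Per2 (9.76 ± 3.11), Clock (7.69 ± 1.30) and Arntl (4.89 ± 2.54). Per1 and Per2, and Clock and Arntl, were the neighbours that differed by more than the larger SD there. Arntl thus was last and Per2 no longer last in DOX high hearts, which was not tested.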

How the data were processed

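RNA of heart tissue (RIN above 7) was made by the authors into poly-A selected, strand-specific libraries and sequenced as paired 75 bp reads. The authors aligned them to Rnor_6.0 with HISAT2 and counted fragments on Ensembl release 81 exons with featureCounts (Subread 1.5.0) by its defaults, which ignore strand, so overlapping antisense genes are not told apart. Values were deposited as raw counts of fragments for each gene, and as TPM, which the authors derived from those counts in R. One TPM cell is missing. The members and lists were chosen with earlier results of these data known.

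Groups came from the sample labels. Counts were fitted over all genes with edgeR 4.0.16 in R 4.3.3 (filterByExpr, TMM, glmQLFit, glmQLFTest, no covariate, Benjamini-Hochberg adjusted p under 0.05). The script was tested on simulated data. Log2 CPM used a prior count of 2. No pair of same-group libraries agreed within sampling noise (60 pairs, lowest chi-square per degree of freedom 13.9), so each rat is 1 replicate, and with a common biological coefficient of variation of 0.316 the spread between rats limits the precision. Correlations used Python 3.11.15 with scipy 1.17.1 (100000 permutations for 10 hearts, all orders for fewer). Alternatives were DESeq2 1.42.0, limma 3.58.1 on log2 TPM (pseudocounts of 1 and 0.1), upper-quartile scaling, dropping the filter, a minimum of 10 counts per library, stricter and looser thresholds, number blocks and leaving out rats. Genes were named by rule: the 6 members, and the 2 genes most like and the 2 most opposite to Arntl. None of the 32545 identifiers matched the RefSeq gene table, so the names of the members are those given with their identifiers, all 6 of which are in that table (Arntl as Bmal1), and 28 other clock and output genes listed by symbol are not reported.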

Additional observations from a re-analysis of the deposited data

Results flagged for a closer look

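Dbp in DOX high rat 30 lay far below the other hearts of its group, at 4.93 log2 CPM with the next DOX high heart at 6.05, a gap of 0.711 of the whole range of the group. Chance gives about 0.6 such values over the 12 groups of values examined (6 genes in each group), and 1 was found. The same heart had the highest Arntl and Clock and the lowest Per1 and Per2 of the DOX high hearts.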

How the results depend on the processing

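Of 2 clock genes past the threshold, 2 passed with upper-quartile scaling, without a filter, with a minimum of 10 counts per library and limma on either TPM scale. DESeq2 and an adjusted p under 0.1 gave 3, but these called 1574 and 1788 of 13607 genes, beside 851 in the main fit. The number was 0 in rats 30 to 39 alone, 0 with the number block as a covariate and 0 at an adjusted p under 0.01 (110 of 13607 genes). It was 1 with Dbp as a covariate, 0 with Arntl as a covariate, and 0 to 3 when 1 rat was left out. Arntl, Per1 and Per2 kept their direction in every alternative fit run for them (27, 28 and 28). Nr1d1 turned to 0.28 both in rats 30 to 39 and under the number block, and Clock to 0.073 and Dbp to -0.79 with Arntl as a covariate. Between the saline blocks Per2 ranged from -0.61 to 0.11 when 1 rat was left out (0.11 without saline rat 10, 0.061 without rat 34). Among saline correlations, that of Arntl and Per1 turned to -0.042 on the TPM scale, -0.030 without TMM factors, -0.067 without rat 37, -0.37 within rats 5 to 10 and -0.047 over 16 hearts after subtracting group means, and that of Per1 and Dbp to 0.018 on the TPM scale, 0.017 without rat 37 and 0.60 within rats 5 to 10. In DOX high hearts Nr1d1 and Dbp turned to 0.26 on the TPM scale, 0.20 without TMM factors, 0.20 without the 2 farthest hearts and 0.72 over 16 hearts, Arntl and Nr1d1 to -0.20 and -0.66 in the last 2 of these, and Per1 and Dbp to -0.085 over 16 hearts. The cause was not tested. Over all genes limma called 255 and 285 of 13607, and upper-quartile scaling 867 of 13607. Without a filter 854 of 23582 genes were called, and with a minimum of 10 counts per library 808 of 11953. No paired analysis was possible because no rat number occurs in both groups.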
